A study of Homo sapiens with 12 samples.

Results

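The change described here is the one that vemurafenib-resistant cells of 2 human melanoma lines, A375 and SKMel28, had in common against their sensitive counterparts. All 12 of the 12 libraries entered, 3 for each of 4 groups. Resistant A375 (A375-R) and resistant SKMel28 (SKMel28-R) grew with 1 µmol/L vemurafenib in the medium, while for sensitive A375 and sensitive SKMel28 cells the labels mention no drug. DMEM with 10% fetal bovine serum was the medium of all 4 groups. Both are established melanoma lines, and vemurafenib is an inhibitor of the mutant BRAF kinase. Resistance and the presence of the drug cannot be told apart in this design, and the 12 libraries stand for only 2 lines. Whether the 3 libraries within a group are separate cultures, and whether a resistant line is 1 clone, is not stated, so p-values measure the spread between these libraries, which may be technical. The study was set up to ask about the IGF1 pathway in melanoma cells that no longer respond to drugs against BRAF and MEK.

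Mutant BRAF keeps the kinases MEK and ERK active, and active ERK drives growth genes as well as its own brakes, the Sprouty proteins and the DUSP phosphatases. Vemurafenib blocks mutant BRAF, and melanoma cells that grow on under the drug are known to do so in different ways: by reactivating ERK, by signalling through receptor tyrosine kinases such as the IGF1 receptor, or by moving between a pigmented state and an undifferentiated, invasive one.

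Poly(A) RNA was read as counts of reads per gene, with 28496518 to 37721363 reads in genes per library. The Pearson correlation of log2 counts per 1000000 reads (CPM) was 0.991 to 0.995 between libraries of 1 group, 0.940 to 0.962 between the states of a line and 0.752 to 0.791 between lines. Of 12 melanoma markers, the summed level was 1196 to 1259 CPM in sensitive and 592 to 605 CPM in resistant A375, and 9221 to 9729 CPM in sensitive and 12330 to 12480 CPM in resistant SKMel28. TYR, the key enzyme of melanin synthesis, was without reads in both A375 groups. Of the 12 melanoma markers, 5 were under 1 CPM in sensitive and 8 in resistant A375, against 0 in each SKMel28 group. Of 12 immune cell markers, the summed level was 38.5 to 43.3 CPM in sensitive and 59.8 to 63.3 CPM in resistant A375, and 207 to 220.2 CPM in sensitive and 759 to 764 CPM in resistant SKMel28. Most of it was CD68, a lysosomal protein known from macrophages and a shared rise, with 31 to 57.5 CPM in A375 and 211 to 761 CPM in SKMel28, while the T cell markers CD3E and CD2 were without reads in all 4 groups and 10 or 11 of the 12 were under 1 CPM in each. Of 11 keratinocyte markers the sum lay between 201 and 269.6 CPM in all 4 groups, with KRT1 without reads in each. Their part in the results was not tested. Reads on mitochondrial genes made up 1.85% to 1.99% of counts in sensitive and 2.11% to 2.27% in resistant A375, and 4.41% to 4.67% against 6.82% to 7.13% in SKMel28. Reads that mapped to several places made up 4.37% to 5.03% in sensitive and 4.57% to 4.79% in resistant A375, but 4.004% to 4.47% in sensitive and 2.09% to 2.44% in resistant SKMel28, and reads not given to a gene 17.1% to 19.0% and 15.1% to 15.6% in SKMel28. The part of these shares in the results was not tested.

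Of 15506 genes tested, the average resistant-minus-sensitive change over both lines was called for 2669 genes as higher (17.2%) and for 2829 as lower (18.2%), by edgeR's quasi-likelihood test with line and state as terms and a Benjamini-Hochberg adjusted p below 0.05. In this fit a difference between the lines sits in the residual spread. The average is the coefficient of the state term, not the plain mean of the lines' changes, and can lie nearer to 1 line. For TYRP1 it was 2.94, with 0.91 in A375 and 3.23 in SKMel28, and for TINAGL1 -3.18, with -1.45 and -9.34. Medians of average changes below are of this coefficient. Within A375 alone 3882 genes (25%) were higher and 4077 (26.3%) lower. Within SKMel28 alone 5301 genes (34.2%) were higher and 5553 (35.8%) lower. A gene is called shared below when the average change and the change in each line were all called with the same sign. That held for 1328 rises (8.56% of the genes tested) and 1498 falls (9.66%), 2826 of the 5498 genes that the average called (51.4%). Of the other average calls, 718 were called in A375 only, 1916 in SKMel28 only, 15 in the lines with opposite signs and 23 in neither line.

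More genes were called in opposite ways than were shared. They numbered 3110 (20.1%), of which 1581 were higher in resistant A375 and lower in resistant SKMel28 (10.2%) and 1529 the reverse (9.86%). Of the 5975 genes called in both lines, 47.9% had the same sign. Of the genes called higher in A375, 34.5% were called higher in SKMel28, beside 34.2% of all genes tested. Of those called lower in A375, 37.4% were called lower in SKMel28, beside 35.8% of all. A call in A375 thus hardly changed how often SKMel28 was called the same way. Across the 15506 genes, which are not independent replicates, the log2 fold changes of the lines had a Pearson r of -0.03 and a Spearman rho of -0.05. At 2-fold or more in each line there were 108 shared rises and 241 shared falls. The shared changes were mostly small, with a median absolute log2 fold change of 0.37 in A375 and 0.55 in SKMel28. Their sizes differed between the lines for 1620 of the 2826 shared genes (57.3%), against 63.8% of all genes tested, and 1172 of the 1620 changed more in SKMel28. At the edge of the call, NTSR1 was just inside with an edgeR adjusted p of 0.0498 and FBXO27 just outside at 0.0516.

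**Figure D1:**
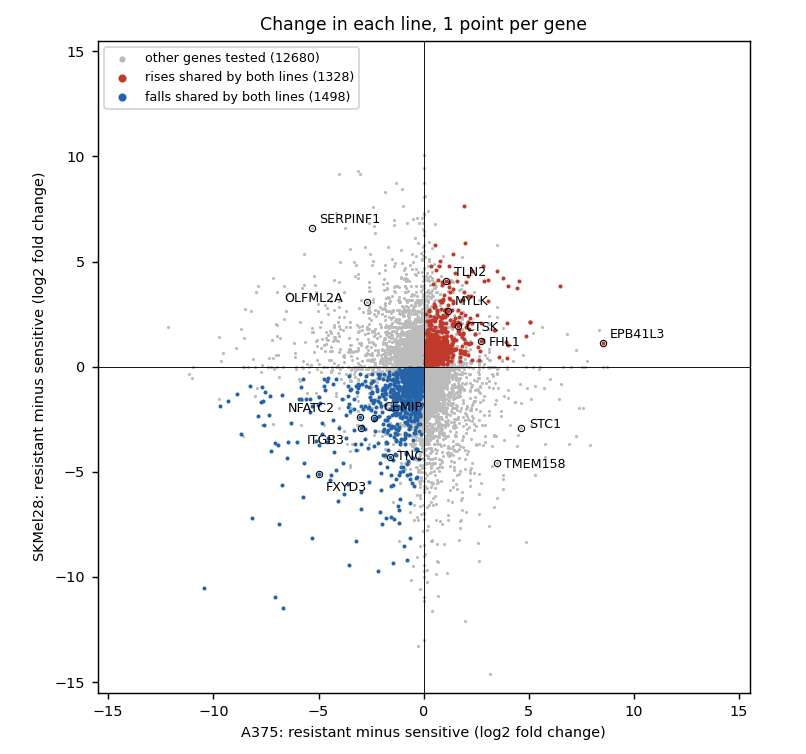
Log2 fold change (resistant minus sensitive) of 15506 genes in A375 on the x axis and in SKMel28 on the y axis, 1 point per gene, with the 1328 shared rises in red, the 1498 shared falls in blue and named genes circled. Red and blue points fill 2 opposite quadrants by definition; the grey points spread over all 4, and 922 of all genes, which had no reads in 1 or more groups, stand at fitted values that are no bounds.

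Because the shared genes move together, their promoters were searched for 4 short motifs on both strands, in 300 bases around the start (250 before and 50 after it, RefSeq, GRCh38.p14). A single start was found for 8672 of the 15506 genes, 714 of the 1328 shared rises and 867 of the 1498 shared falls. The AP-1 motif TGANTCA stood in 4.89% of all these promoters, 4.76% of those of the rises and 3.92% of those of the falls. The TEAD motif GGAATG stood in 11.2%, 10.6% and 10.7%, the E-box CACGTG in 10.0%, 9.94% and 11.1%, and the ATF4 motif TGATGNAA in 1.60%, 1.96% and 1.61%. Matches of different motifs were counted separately, also where they overlapped. Shares among shared genes lay close to those of all promoters for each motif. Among the 15 largest rises and 15 largest falls described next, the promoters of 11 genes were listed singly. These 11 are not a count of the promoters that could be read. The single promoters were listed over 280 bases only, from 250 before to 30 after the start. Of these 11, that of MYLK, a rise, held motifs within the 280 bases. They were TGATGNAA on the minus strand of the promoter at 248 bases before the start and GGAATG on that strand from the last base before it. The promoters of CEMIP and FXYD3, both falls of like size in the lines, held none of the 4 within the 280 bases. The 3 are shown from 250 bases before to 30 after the start, 5′ to 3′ on the strand of the gene, with motif matches in capitals. The starts used for MYLK and FXYD3 lie inside the spans of these genes, away from their 5′ ends.
MYLK (chr3:123620519-123620798, minus strand): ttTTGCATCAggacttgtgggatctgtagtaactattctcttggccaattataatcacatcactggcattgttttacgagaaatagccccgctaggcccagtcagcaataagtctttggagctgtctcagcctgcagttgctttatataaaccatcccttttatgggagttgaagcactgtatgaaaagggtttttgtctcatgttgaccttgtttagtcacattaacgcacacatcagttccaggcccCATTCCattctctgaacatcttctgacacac
CEMIP (chr15:80779120-80779399, plus strand): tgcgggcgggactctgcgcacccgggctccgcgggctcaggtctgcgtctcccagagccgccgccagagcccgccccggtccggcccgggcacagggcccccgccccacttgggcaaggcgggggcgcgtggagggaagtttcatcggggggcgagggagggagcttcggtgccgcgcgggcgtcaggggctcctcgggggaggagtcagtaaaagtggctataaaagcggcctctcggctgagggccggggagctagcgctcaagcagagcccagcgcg
FXYD3 (chr19:35117750-35118029, plus strand): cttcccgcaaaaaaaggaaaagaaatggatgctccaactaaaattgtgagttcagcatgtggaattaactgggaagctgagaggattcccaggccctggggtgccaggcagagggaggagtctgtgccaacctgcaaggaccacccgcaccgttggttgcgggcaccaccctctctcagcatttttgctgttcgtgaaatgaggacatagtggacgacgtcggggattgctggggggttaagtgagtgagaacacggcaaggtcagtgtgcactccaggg

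At 2-fold or more in each line, falls outnumbered rises. The 15 largest shared falls and 15 largest shared rises were ranked among genes that reach 10 CPM or more in 1 or both states of each line. Only genes whose resistant and sensitive libraries did not overlap in either line were ranked. Separation of the states in these genes was therefore part of the choice and is no finding. The largest shared fall by the smaller change of the lines was that of FXYD3. FXYD3, a small membrane protein that regulates the sodium pump, had 12.2, 12.6 and 13.6 CPM in the 3 sensitive A375 libraries and 0.475, 0.149 and 0.575 CPM in the resistant ones. In SKMel28 it had 14.3, 16 and 15.5 CPM in sensitive and 0.369, 0.378 and 0.554 CPM in resistant cells. Each resistant library was far below each sensitive one in both lines, with log2 fold changes of -4.98 and -5.12 (average -5.05 ± 0.24 SE, edgeR adjusted p = 1.65e-07). The gene lies at chr19:35115879-35124324 on GRCh38. Here and below, fewer cells of a kind and less RNA per cell cannot be told apart, since each library is a bulk sample.

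ITGB3, the beta 3 integrin subunit that pairs with the alpha V subunit as a receptor for vitronectin and other matrix proteins, had the smallest adjusted p of the genes named here. Its level was 57.4, 62.5 and 66 CPM in sensitive and 6.88, 7.82 and 8.69 CPM in resistant A375. SKMel28 libraries held 589.7, 569 and 584 CPM in sensitive and 83.4, 75.5 and 70.5 CPM in resistant cells. The starting levels differed widely between the lines, yet the fall was -2.99 in A375 and -2.92 in SKMel28 on the log2 scale, with no overlap between states. The average change was -2.96 ± 0.066 (SE, edgeR adjusted p = 8.12e-10), and the lines' changes differed by -0.07 ± 0.092 (SE, edgeR adjusted p = 0.554). ITGB3 lies at chr17:47253846-47311816.

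CEMIP, a secreted protein that takes part in the breakdown of hyaluronan, went from 60.7, 65.3 and 78.3 CPM to 13.2, 12.9 and 13.6 CPM in A375. The SKMel28 libraries went from 181, 159 and 163 CPM to 33, 34.5 and 25.9 CPM. States did not overlap in either line, and the log2 fold changes were -2.36 and -2.43 (average -2.40 ± 0.085 SE, edgeR adjusted p = 2.43e-08).

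NFATC2 and RCAN1 both stood among the 15 largest shared falls. NFATC2, a transcription factor that calcineurin sends to the nucleus, had 26.3, 27.6 and 28.3 CPM in sensitive and 3.41, 3.30 and 3.21 CPM in resistant A375. The values were 120.2, 108 and 107 CPM and 21.2, 22.1 and 20.3 CPM in SKMel28. No resistant library reached a sensitive one, with log2 fold changes of -3.05 and -2.40 (edgeR adjusted p of the average = 7.29e-08). RCAN1, an inhibitor of calcineurin and a known NFAT target, went from 56.2 ± 3.68 to 15.7 ± 1.70 CPM in A375 and 208 ± 4.24 to 70.7 ± 2.58 CPM in SKMel28 (SD, n = 3 here and below). Its states did not overlap in either line (edgeR adjusted p of the average = 6.72e-08).

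CSPG4, TNC, MIA and CTHRC1, which encode surface or secreted proteins, also stood among the 15. CSPG4, the melanoma chondroitin sulfate proteoglycan, had 447, 486 and 486 CPM in sensitive and 169, 173 and 179.9 CPM in resistant A375, and 151, 169 and 149 CPM and 49.3, 51.7 and 51.9 CPM in SKMel28. The groups were separate in each line, and the average log2 fold change was -1.53 ± 0.05 (SE, edgeR adjusted p = 1.53e-08). The matrix glycoprotein tenascin C, TNC, fell from 379 ± 15.3 to 124 ± 0.835 CPM in A375 and 1507 ± 109.6 to 77.7 ± 4.01 CPM in SKMel28. MIA, a secreted melanoma protein, fell from 49.5 ± 3.17 to 19.6 ± 2.80 CPM in A375 and 34.2 ± 2.37 to 8.14 ± 0.381 CPM in SKMel28. CTHRC1, a secreted collagen-like protein, fell from 14.5 ± 1.82 to 5.43 ± 0.622 CPM in A375 and 142 ± 3.17 to 14 ± 0.234 CPM in SKMel28. For TNC, MIA and CTHRC1 the fall was larger in SKMel28 than in A375 by the test of the difference (edgeR adjusted p = 3.67e-30, 5.73e-07 and 5.21e-19).

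Some falls were shared in sign only, being near-complete in 1 line and partial in the other. S100B, a calcium-binding melanoma marker, fell from 10.9 ± 0.449 to 0.0957 ± 0.0690 CPM in A375 and 465 ± 10.3 to 185 ± 3.16 CPM in SKMel28. EXTL1, a glycosyltransferase of heparan sulfate, fell from 24.6 ± 1.71 to 0.418 ± 0.208 CPM in A375 and 58.4 ± 1.39 to 20.2 ± 0.826 CPM in SKMel28. TINAGL1, a matrix-associated protein, fell from 445 ± 20.7 to 163 ± 3.16 CPM in A375, while in SKMel28 2000 reads in the sensitive libraries stood against 3 in the resistant ones, a 727-fold ratio with a 95% exact binomial interval of 248 to 3530 that covers counting error only. The remaining members of the 15 largest falls were FAM84B (-1.75 and -3.63 on the log2 scale in A375 and SKMel28), HIVEP3 (-1.34 and -1.81) and TMTC2 (-1.80 and -1.30).

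Rises shared by both lines were led by CTSK, the lysosomal protease cathepsin K, which cuts collagen. It had 5.12, 4.57 and 4.59 CPM in sensitive and 16, 14.9 and 14.2 CPM in resistant A375. In SKMel28 the libraries held 26.2, 27.2 and 24.7 CPM and 100.3, 97.3 and 102 CPM. Every resistant library exceeded every sensitive one within its line, by 1.65 and 1.94 on the log2 scale (average 1.81 ± 0.066 SE, edgeR adjusted p = 2.69e-08). CTSK lies at chr1:150796208-150808323. PNMA2, a protein of the paraneoplastic antigen family, rose from 7.30 ± 0.961 to 24.3 ± 1.98 CPM in A375 and 14.4 ± 1.43 to 41.6 ± 2.85 CPM in SKMel28, by amounts that did not pass the test of a difference between lines (edgeR adjusted p = 0.190).

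MYLK, FHL1, TLN2 and EPB41L3, of the cytoskeleton, stood among the 15 largest rises. MYLK, the kinase that activates myosin light chain and with it contraction, had 40, 41.2 and 40.7 CPM in sensitive and 90.6, 91 and 88.1 CPM in resistant A375. In SKMel28 the values were 15.6, 16 and 14.4 CPM and 96.8, 98.8 and 96.4 CPM. The lines ended at close levels from different starts, with log2 fold changes of 1.15 and 2.67 (average edgeR adjusted p = 1.74e-04). FHL1, a LIM-domain protein of muscle and other contractile cells, had 11.5, 12.7 and 11.3 CPM and 77.6, 81.5 and 77.9 CPM in A375, and 17, 14.5 and 16.7 CPM and 36.4, 37.3 and 39.4 CPM in SKMel28. Here the larger rise was in A375 (difference between lines 1.51 ± 0.094 SE, edgeR adjusted p = 3.91e-18). TLN2, the talin that couples integrins to actin, rose from 14.1 ± 0.448 to 29.7 ± 0.497 CPM in A375 and 1.57 ± 0.173 to 26.5 ± 2.44 CPM in SKMel28. EPB41L3, which links membrane proteins to the cortical skeleton, rose from 0.0761 ± 0.0216 to 30.1 ± 0.677 CPM in A375 and 104 ± 2.93 to 223 ± 5.77 CPM in SKMel28.

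PROS1, which encodes protein S, a ligand of the receptors TYRO3, AXL and MERTK, had 11.3, 9.54 and 9.88 CPM in sensitive and 24.5, 22.7 and 25.6 CPM in resistant A375. SKMel28 held 100, 96.9 and 94.2 CPM and 448, 448 and 455 CPM. The rise was separate from the spread in each line and larger in SKMel28 (difference -0.98 ± 0.075 SE, edgeR adjusted p = 2.51e-15). The death receptor FAS rose from 13.5 ± 1.00 to 29.2 ± 0.313 CPM in A375 and 1.91 ± 0.212 to 10.3 ± 0.301 CPM in SKMel28. MLPH, which ties pigment granules to the myosin motor, rose from 18.6 ± 0.879 to 36.6 ± 0.911 CPM in A375 and 186 ± 6.03 to 422 ± 10.6 CPM in SKMel28.

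HAS2 and VCAN stood among the 15 rises and CEMIP among the 15 falls, all 3 genes that bear on hyaluronan. HAS2, a hyaluronan synthase, had 4.11, 5.18 and 3.89 CPM in sensitive and 19.3, 20.2 and 22.4 CPM in resistant A375. In SKMel28 the libraries held 32.6, 30.1 and 32 CPM and 68.6, 68.2 and 71.3 CPM. States were separate in both lines, with an average change of 1.66 ± 0.18 (SE, edgeR adjusted p = 6.19e-05), while CEMIP fell as given above. VCAN, the hyaluronan-binding proteoglycan versican, rose from 4.83 ± 0.768 to 10.3 ± 0.652 CPM in A375 and 7.79 ± 0.409 to 15.6 ± 2.32 CPM in SKMel28, a nearly equal change of 1.10 and 1.00. The other large rises were VEPH1, EFR3B, which anchors a lipid kinase at the plasma membrane, MYEF2, a repressor of the myelin basic protein gene, and DHRS2, a short-chain dehydrogenase, with average log2 fold changes of 1.71, 1.54, 1.18 and 1.17.

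**Figure D2:**
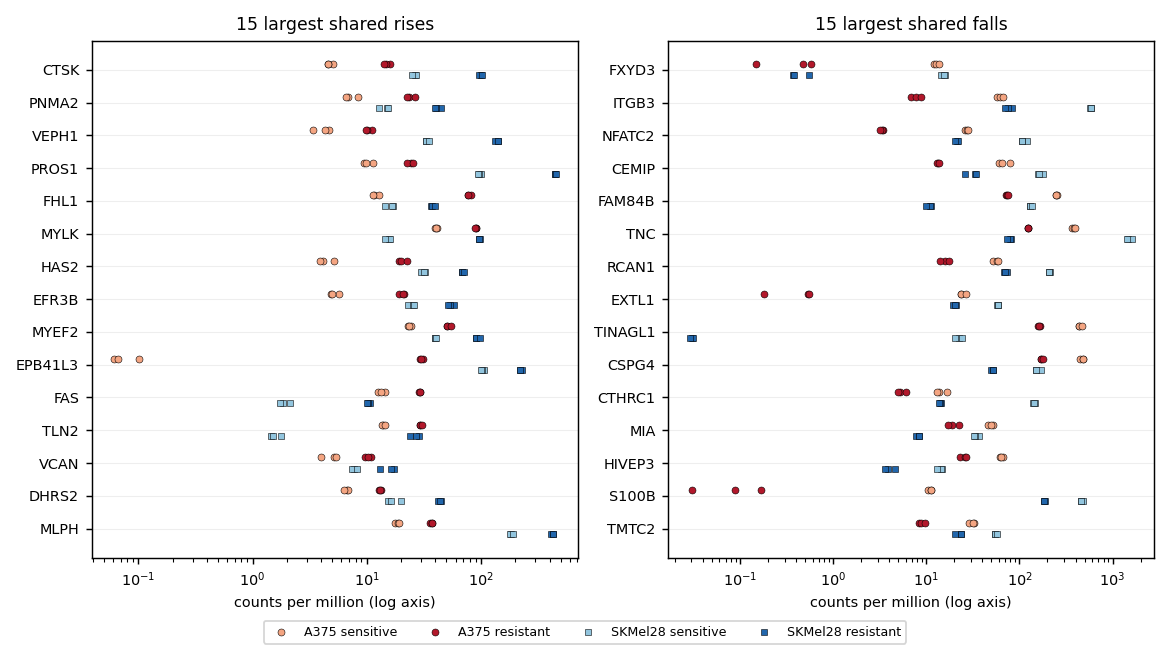
CPM (log axis) of the 15 largest shared rises (left) and falls (right), ranked by the smaller absolute log2 fold change of the lines, 1 point per library, circles for A375 and squares for SKMel28. Pale points are sensitive and dark points resistant libraries. For each gene the dark points lie on 1 side of the pale ones in each line, which was a condition of the choice. ITGB3 and FXYD3 show gaps of like width in both lines, EPB41L3 and S100B gaps of unlike width.

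The 5 shared changes of at least 2-fold that differed least between the lines were those of TMX4, DDIT4, ITGB3, CEMIP and VCAN. TMX4, a thioredoxin-related protein of the endoplasmic reticulum, had 153, 154 and 160.4 CPM and 67.6, 71 and 71.5 CPM in sensitive and resistant A375, and 151, 157 and 155 CPM and 75.9, 70 and 67.5 CPM in SKMel28. Its levels lay close between the lines in both states. DDIT4, the inhibitor of mTORC1 also called REDD1, had 168, 180.1 and 188 CPM and 81.6, 76.3 and 73.5 CPM in A375, and 179, 184 and 189.9 CPM and 73.5, 78.6 and 77 CPM in SKMel28. Its average log2 fold change was -1.24 ± 0.042 (SE, edgeR adjusted p = 1.61e-08), against -1.14 ± 0.038 for TMX4 (edgeR adjusted p = 1.53e-08). Likeness was part of how these 5 were chosen and is no finding.

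Gene groups are described by counts of tested members that rose or fell in both lines or were called in opposite ways, to be read against 8.56%, 9.66% and 20.1% of all genes, and by the median average log2 fold change, which was -0.02 over all genes. Some genes stand in several groups. Counts without genes of shifted arms come from a fit that leaves out chromosome arms with a median log2 fold change beyond 0.25 in a line, described at the end. No group was tested as a set.

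**Figure D3:**
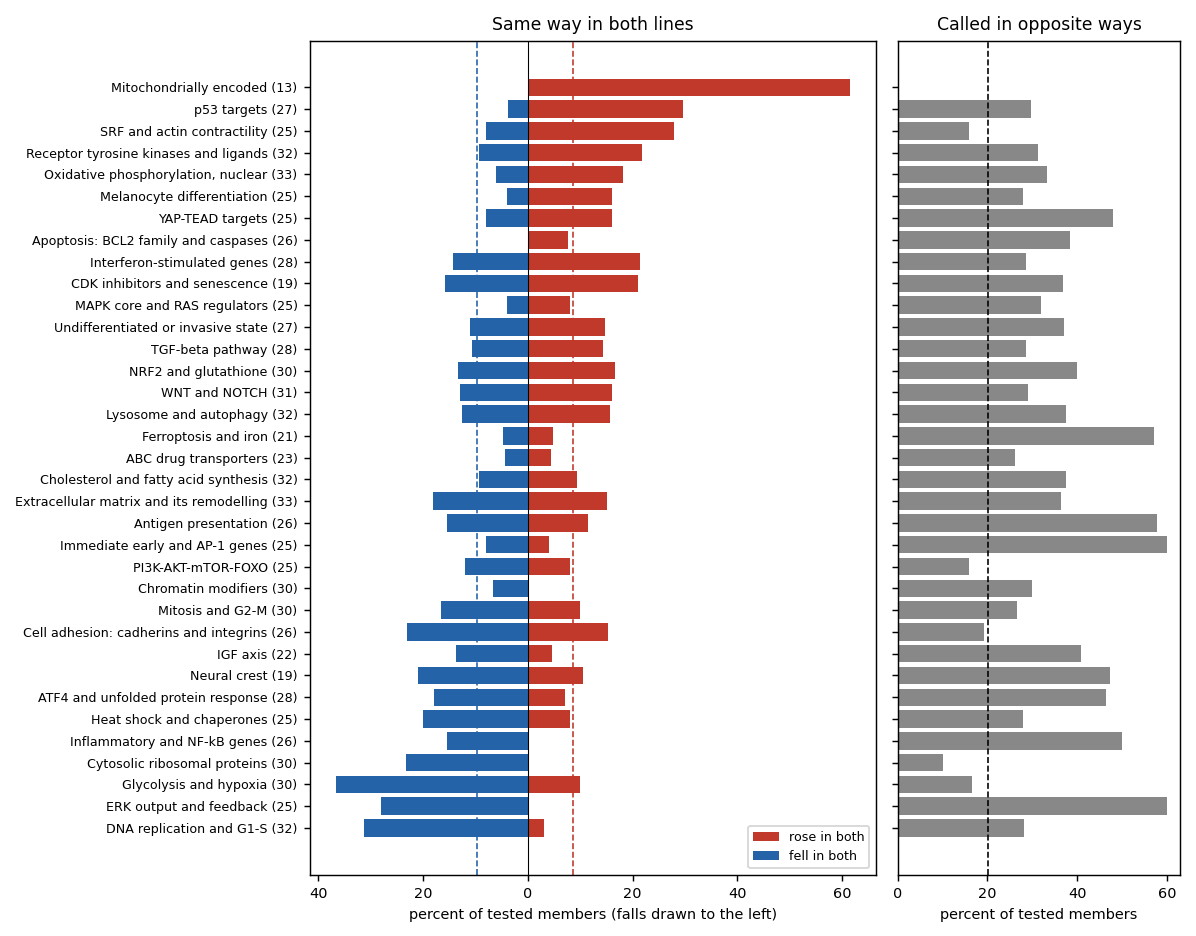
Share of tested members (number in brackets) that rose (red, right) or fell (blue, left) in both lines, and, in the right panel, that were called in opposite ways, for 35 gene lists ordered by the difference between the red and blue shares. Dashed lines give the shares of all genes tested (8.56%, 9.66% and 20.1%); the mitochondrially encoded list reaches farthest to the right, and the glycolysis, G1-S and ERK lists farthest to the left.

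Genes that report ERK output fell together only in part. Of 25 members, 0 rose and 7 fell in both lines, and 15 were called in opposite ways, each higher in resistant A375 and lower in resistant SKMel28 (median average change -0.73). The median change was 0.19 in A375 and -1.43 in SKMel28. The Sprouty genes SPRY1, SPRY2 and SPRY4, feedback inhibitors of receptor signalling to ERK, were among the falls. SPRY2 had 103, 108 and 113 CPM in sensitive and 65.1, 57.1 and 63.8 CPM in resistant A375, and 120.2, 119.5 and 116 CPM and 50.6, 49.1 and 47.4 CPM in SKMel28, with no overlap of states (edgeR adjusted p = 6.93e-06). SPRY4 fell from 53.6 ± 3.18 to 39 ± 1.01 CPM in A375 and 175 ± 6.40 to 75.9 ± 1.51 CPM in SKMel28. The receptor tyrosine kinase genes EPHA4 (average -0.96 ± 0.11 SE) and EPHA2 (-0.71 ± 0.14 SE) also fell, as did the ETS factor ETV4, from 178 ± 1.51 to 134 ± 3.12 CPM in A375 and 117 ± 6.24 to 22 ± 2.11 CPM in SKMel28. DUSP4, a phosphatase of ERK, completed the 7, with -0.10 in A375 and -1.78 in SKMel28. The average call of DUSP4 (edgeR adjusted p = 0.0172) was lost without resistant SKMel28 library 2 or 3, at 0.0504 and 0.0506.

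Several well-known ERK targets were not shared. DUSP6, the cytosolic ERK phosphatase, had 175, 188 and 181 CPM in sensitive and 313, 312 and 303 CPM in resistant A375, and 135, 133 and 139.5 CPM and 75.3, 78.5 and 75.5 CPM in SKMel28. It was higher in every resistant A375 library and lower in every resistant SKMel28 library than in the sensitive ones, and the average was -0.03 ± 0.25 (SE, edgeR adjusted p = 0.944). FOSL1, an AP-1 subunit, went from 416 ± 1.86 to 625 ± 12.3 CPM in A375 and 146 ± 10.7 to 41.4 ± 0.903 CPM in SKMel28. HMGA2, a chromatin architectural protein, went from 268 ± 5.72 to 509.6 ± 10.5 CPM in A375 and 133 ± 2.75 to 42.9 ± 1.04 CPM in SKMel28. CCND1, the D-type cyclin, went from 611 ± 15.7 to 696 ± 11.2 CPM in A375 and 2519 ± 42.8 to 769 ± 20.9 CPM in SKMel28, and its average of -0.76 ± 0.30 (SE) had an edgeR adjusted p of 0.0671. Each of FOSL1, HMGA2 and CCND1 rose in A375 and fell in SKMel28. Without sensitive A375 library 1 or 2 the average fall of CCND1 was called, with edgeR adjusted p of 0.0432 and 0.0445. ETV5, of the same family as ETV4, was called by the average at -0.11 ± 0.039 (SE, edgeR adjusted p = 0.0437), but in SKMel28 alone it was not called (-0.03, edgeR adjusted p = 0.408). Leaving out 1 library ended the ETV5 call in 10 of 12 cases, all but resistant and sensitive SKMel28 library 1, with edgeR adjusted p from 0.0523 to 0.141.

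**Figure D4:**
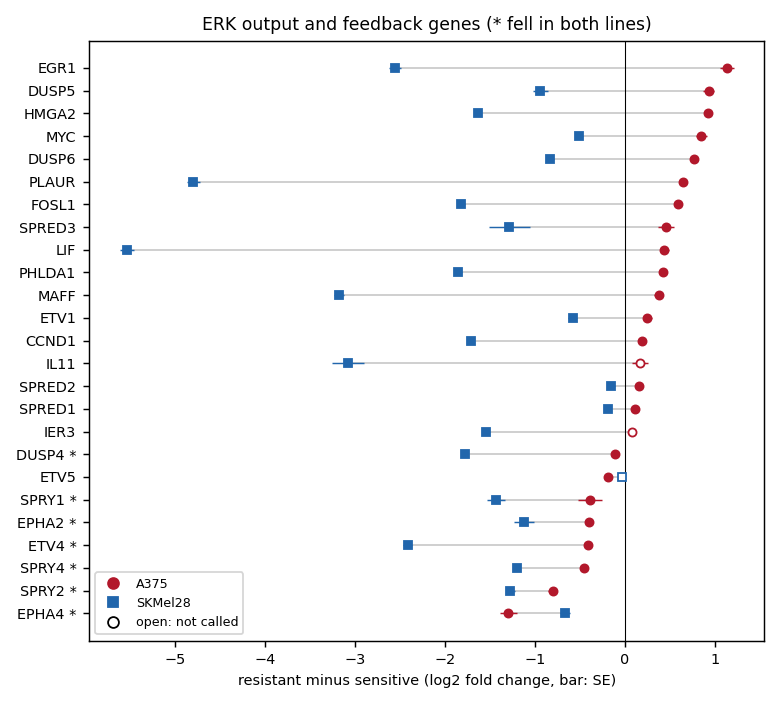
Log2 fold change (resistant minus sensitive) with its standard error for the 25 ERK output and feedback genes, circles for A375 and squares for SKMel28, open where not called by edgeR, joined by a grey line for each gene. The 7 genes with a star fell in both lines, and 15 have filled symbols to the right of 0 in A375 and to the left in SKMel28.

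Upstream of ERK, 2 of 25 core MAPK and RAS genes rose, 1 fell and 8 were called in opposite ways (median 0.02). Without sensitive A375 library 3 the list held 1 rise and 1 fall, and without genes of shifted arms 1 and 1 of 17. SHOC2, a scaffold that helps RAS activate RAF, went from 42.7 to 48.3 CPM in A375 and 25.6 to 41.2 CPM in SKMel28, and SOS1, an exchange factor that loads RAS with GTP, from 48.3 to 53.9 CPM in A375 and 42 to 73.9 CPM in SKMel28. BRAF itself, the drug target, had 11.1 ± 0.354 and 11.1 ± 0.984 CPM in sensitive and resistant A375 and 13.4 ± 0.653 and 11.4 ± 1.72 CPM in SKMel28, where it was called lower with overlapping libraries (average -0.12 ± 0.091 SE, edgeR adjusted p = 0.336). MAP2K1, which encodes MEK1, rose in A375 (0.30) and fell in SKMel28 (-0.48).

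In the PI3K pathway, which carries signals from the IGF1 and other receptors to AKT, 2 of 25 genes rose, 3 fell and 4 were called in opposite ways (median 0.03). The 3 falls were all subunits of PI3K. The catalytic subunit PIK3CD fell from 26.8 ± 0.997 to 8.82 ± 0.930 CPM in A375 and 132 ± 3.49 to 75.6 ± 1.71 CPM in SKMel28, and the regulatory subunits PIK3R1 and PIK3R3 by average values of 0.29 and 0.32 on the log2 scale. PDPK1, the kinase that activates AKT, rose by 0.21 and 0.16. PIK3CD and PIK3R3 lie on chromosome arm 1p, where A375 had a median log2 fold change of -0.53, and without the genes of shifted arms 1 of 12 rose and 0 fell.

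Among 22 tested genes of the IGF axis, 1 rose, 3 fell and 9 were called in opposite ways (median 0.00). The counts were 0 rises and 1 fall of 13 without genes of shifted arms. IGFBP3, a binding protein that holds IGFs in the extracellular space, had 95.9, 89.5 and 94.7 CPM in sensitive and 149.8, 144 and 146 CPM in resistant A375, and 24.3, 26.3 and 29.4 CPM and 47.6, 48.6 and 48.7 CPM in SKMel28. Its resistant libraries were above the sensitive ones in both lines (average 0.75 ± 0.056 SE, edgeR adjusted p = 3.92e-06). IGFBP7 fell from 31.3 ± 1.99 to 20.8 ± 1.27 CPM in A375 and 213 ± 3.60 to 111 ± 1.98 CPM in SKMel28, and the adaptor IRS2, which couples the IGF1 and insulin receptors to PI3K, from 148 ± 2.13 to 89 ± 1.89 CPM in A375 and 167 ± 8.47 to 145 ± 6.58 CPM in SKMel28. PAPPA, a protease that frees IGFs from binding proteins, fell at a low level, from 1.12 to 0.608 CPM in A375 and 0.718 to 0.160 CPM in SKMel28. The receptor gene was not shared. IGF1R had 85.5, 86.1 and 86.6 CPM in sensitive and 46.3, 50.7 and 49.6 CPM in resistant A375, and 153, 169 and 161 CPM and 281, 275 and 266 CPM in SKMel28, a fall in the first line and a rise in the second with an average of -0.02 ± 0.25 (SE, edgeR adjusted p = 0.958). IRS1 went the other way, with 0.59 in A375 and -1.82 in SKMel28.

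Of 32 receptor tyrosine kinases and their ligands, 7 rose, 3 fell and 10 were called in opposite ways (median 0.14). MERTK, a receptor for protein S and GAS6, rose from 0.418 ± 0.228 to 1.19 ± 0.362 CPM in A375 and 18.5 ± 1.50 to 32 ± 1.15 CPM in SKMel28, beside the rise of its ligand PROS1. The ligands PDGFC and FGF1 rose by average values of 0.67 ± 0.12 and 0.61 ± 0.13 (SE). MET, the receptor of hepatocyte growth factor, went from 252 ± 5.25 to 315 ± 7.37 CPM in A375 and 126 ± 3.03 to 574 ± 34.8 CPM in SKMel28, and the collagen receptor DDR2 from 39.7 ± 1.40 to 48.4 ± 0.222 CPM in A375 and 7.98 ± 0.579 to 31.9 ± 4.26 CPM in SKMel28, both with most of the change in SKMel28. NGFR, the p75 neurotrophin receptor, fell from 162 ± 1.32 to 91.8 ± 3.92 CPM in A375 and 401 ± 28.2 to 22.3 ± 1.08 CPM in SKMel28. EGFR and AXL, often discussed in resistance to BRAF inhibitors, were called in opposite ways. EGFR changed by 0.54 in A375 and -0.54 in SKMel28, and AXL by 0.24 and -0.23.

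Cadherins, integrins and related adhesion genes were shared more often than most groups, with 4 rises and 6 falls of 26 and 5 called in opposite ways (median -0.37). Without genes of shifted arms 1 of 15 rose and 4 fell. L1CAM, a neural adhesion molecule, fell from 346 ± 4.60 to 173 ± 1.77 CPM in A375 and 232 ± 2.34 to 101 ± 4.83 CPM in SKMel28 (edgeR adjusted p = 3.52e-08). CDH2, N-cadherin, fell from 105 ± 3.27 to 68.1 ± 1.38 CPM in A375 and 69.6 ± 0.968 to 36.9 ± 1.50 CPM in SKMel28. ITGA7, a laminin-binding integrin subunit, rose from 10.2 ± 0.977 to 18.5 ± 0.998 CPM in A375 and 62 ± 3.73 to 127 ± 4.44 CPM in SKMel28, and ITGA2, a collagen-binding one, from 66.6 ± 2.05 to 164 ± 3.95 CPM in A375 and 34.9 ± 2.03 to 63.4 ± 6.60 CPM in SKMel28. So the integrin subunits moved in different directions, ITGB3 falling most. Of the extracellular matrix list, 5 of 33 rose, 6 fell and 12 were called in opposite ways (median -0.22), 7 and 5 without resistant SKMel28 library 3, and 3 and 2 of 17 without genes of shifted arms. The metalloproteinase inhibitor TIMP2 rose from 201 ± 1.37 to 282 ± 7.16 CPM in A375 and 801 ± 22.8 to 1002 ± 11.6 CPM in SKMel28. COL4A2, a chain of basement membrane collagen, fell from 567 ± 14.9 to 353 ± 5.17 CPM in A375 and 14.4 ± 1.55 to 10.4 ± 0.932 CPM in SKMel28.

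Genes of actin contractility and of the factor SRF rose more often than they fell, 7 of 25 against 2, with 4 called in opposite ways (median 0.11). ACTA2, smooth muscle actin, rose from 3.62 ± 0.548 to 11.4 ± 1.05 CPM in A375 and 0.442 ± 0.0433 to 2.85 ± 0.203 CPM in SKMel28. VCL, vinculin, which anchors actin at adhesions, rose from 213 ± 1.17 to 400.1 ± 6.95 CPM in A375 and 129 ± 3.15 to 181 ± 16.2 CPM in SKMel28, and TPM4, a tropomyosin, by 0.27 and 0.45. Against this direction MYL9, a myosin light chain and a substrate of MYLK, fell from 9.41 ± 0.581 to 3.56 ± 0.519 CPM in A375 and 22.1 ± 2.20 to 7.70 ± 1.63 CPM in SKMel28. Of the 7 rises, 3 (ACTA2 and VCL among them) lie on 10p or 10q, arms with SKMel28 medians of 0.50 and 0.34, and 4 rises and 1 fall of 20 genes were found without the genes of shifted arms. YAP and TEAD targets gave 4 rises, 2 falls and 12 opposite calls of 25 (median 0.02). Without genes of shifted arms 1 rose and 1 fell of 13, and 1 fell without any 1 of the A375 libraries other than sensitive library 2. CYR61, a matricellular YAP target, rose from 125 ± 1.77 to 241 ± 5.46 CPM in A375 and 26.5 ± 0.875 to 169 ± 8.40 CPM in SKMel28, and WWC1, which restrains YAP, from 16.6 ± 0.341 to 26.8 ± 2.81 CPM in A375 and 34 ± 1.91 to 54.3 ± 3.21 CPM in SKMel28. CRIM1 and ASAP1 rose by average values of 0.41 and 0.61.

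TGF-beta, WNT and NOTCH genes moved in both directions. Of 28 TGF-beta pathway genes, 4 rose, 3 fell and 8 were called in opposite ways (median 0.01). Without genes of shifted arms 3 of 18 rose, 0 fell and the median was 0.34. TGFB1, the ligand, rose from 128 ± 8.47 to 178 ± 8.53 CPM in A375 and 35.4 ± 1.69 to 54.5 ± 3.93 CPM in SKMel28. Of the ID proteins, which block other transcription factors, ID2 rose by 1.28 and 1.48 and ID1 fell by 0.56 and 0.88 on the log2 scale. BMP7 fell from 50.6 ± 1.60 to 3.12 ± 0.516 CPM in SKMel28 and from 59 reads to none in A375, at least 19.6-fold lower against a floor of 3 reads over the group. In the WNT and NOTCH list 5 of 31 rose, 4 fell and 9 were called in opposite ways (median 0.06). Without resistant A375 library 1, 5 rose and 2 fell, and without genes of shifted arms 2 rose and 2 fell of 19. JAG1, a NOTCH ligand, rose from 37.7 ± 1.97 to 91.6 ± 3.70 CPM in A375 and 27.6 ± 2.97 to 44.6 ± 1.25 CPM in SKMel28. NOTCH2 fell from 299 ± 10.9 to 243 ± 10.7 CPM in A375 and 670.0 ± 16.9 to 421 ± 43.5 CPM in SKMel28, and LEF1, a transcription factor of WNT signalling, from 15.4 ± 0.664 to 9.79 ± 0.798 CPM in A375 and 163 ± 4.84 to 54.6 ± 1.65 CPM in SKMel28. The WNT receptor FZD6 rose by 0.21 and 0.57.

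The pigment cell programme was not shared as a whole. Of 25 melanocyte genes 4 rose, 1 fell and 7 were called in opposite ways (median 0.26, or 0.20 with members without reads in a group set at their bound). No fall was left (0) without any 1 of the A375 libraries other than sensitive library 2, or without genes of shifted arms, where 3 of 19 rose. The rises were in genes of melanosome contents and transport. RAB38, which helps deliver enzymes to melanosomes, rose from 12.1 ± 0.945 to 17.4 ± 0.961 CPM in A375 and 109.6 ± 1.07 to 158 ± 3.35 CPM in SKMel28. RAB27A, which moves melanosomes, rose from 8.55 ± 0.272 to 10.7 ± 0.712 CPM in A375 and 126 ± 2.58 to 182 ± 4.35 CPM in SKMel28. TYRP1, an enzyme of melanin synthesis, rose from 0.192 ± 0.0704 to 0.347 ± 0.187 CPM in A375 and 218 ± 1.09 to 2037 ± 6.23 CPM in SKMel28, so in A375 it stayed under 1 CPM, with overlapping libraries. MITF, the master regulator of this programme, was at 39.6 ± 1.16 CPM in sensitive and 31 ± 1.43 CPM in resistant A375, a fall, and at 508 ± 7.44 CPM in sensitive and 807 ± 34.8 CPM in resistant SKMel28, a rise (average 0.16 ± 0.16 SE, edgeR adjusted p = 0.440). MLANA was at 0.273 and 0.436 CPM in A375, where it was not called (edgeR adjusted p = 0.0817), and rose from 615 ± 3.06 to 907 ± 44.3 CPM in SKMel28.

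Of 19 neural crest genes, 2 rose, 4 fell and 9 were called in opposite ways (median -0.29). With 1 library left out the median ran from -0.63 (without sensitive SKMel28 library 1) to -0.08 (without resistant A375 library 3), and 1 rose without sensitive A375 library 1. Without genes of shifted arms 0 of 14 rose, 4 fell and the median was -0.96. SOX10, which specifies the melanocyte lineage, was lower in both lines but to very different degrees. It had 325, 319.6 and 332 CPM in sensitive and 0.0839, 0.178 and 0.151 CPM in resistant A375, and 701, 706 and 757 CPM and 541, 588 and 578 CPM in SKMel28. Both line changes were called, yet the average was not (edgeR adjusted p = 0.123), because the difference between lines enters its spread. SOX10 is 1 of 39 genes of this kind. RXRG, a retinoid receptor that marks a neural crest-like state, went from 159 reads to none in A375, at least 52.9-fold lower against a floor of 3 reads over the group, and from 47.2 ± 1.79 to 5.12 ± 0.319 CPM in SKMel28. MSX2, a homeobox factor, rose by 0.49 and 0.54.

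In the antigen presentation list 3 of 26 rose, 4 fell and 15 were called in opposite ways (median -0.16), and the 4 falls were all of class II: CIITA, its master regulator, the invariant chain CD74, HLA-DRA and HLA-DPB1. Without resistant SKMel28 library 1 or sensitive SKMel28 library 3 only 1 rose, and with 1 library left out the median ran from -0.26 to -0.05. CD74 had 435, 433 and 442 CPM in sensitive and 66.3, 62.4 and 62.4 CPM in resistant A375, and 3.70, 3.26 and 3.68 CPM and 0.737, 1.29 and 0.875 CPM in SKMel28. CIITA fell from 17.4 ± 1.29 to 3.59 ± 0.415 CPM in A375 and 0.474 ± 0.162 to 0.123 ± 0.0654 CPM in SKMel28, and HLA-DRA from 73.3 ± 2.01 to 2.57 ± 0.392 CPM in A375 and 1.73 ± 0.562 to 0.265 ± 0.0442 CPM in SKMel28. States were separate for each of these genes, but SKMel28 expressed them at low levels from the start, and HLA genes share reads with near-identical copies. B2M, the light chain of class I, rose by 0.43 and 0.14. CD274, which encodes PD-L1, rose from 7.73 ± 0.507 to 26 ± 1.41 CPM in A375 and 2.10 ± 0.711 to 2.90 ± 0.399 CPM in SKMel28, with overlapping libraries in SKMel28.

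Inflammatory genes gave 0 rises, 4 falls and 13 opposite calls of 26 (median -0.40). In A375 13 were called higher and 6 lower, but in SKMel28 1 higher and 22 lower. The median change was 0.19 in A375 and -0.95 in SKMel28. Without sensitive A375 library 3 only 2 fell, and without 1 of the resistant SKMel28 libraries the median was -0.25 to -0.22. TRAF1, an adaptor of TNF receptors, fell from 7.02 ± 0.452 to 1.40 ± 0.376 CPM in A375 and 30.2 ± 3.17 to 6.77 ± 0.305 CPM in SKMel28. NFKB1, the p50 precursor, fell from 75 ± 1.88 to 55 ± 0.903 CPM in A375 and 55.3 ± 1.14 to 42.8 ± 2.42 CPM in SKMel28. PTGS2, cyclooxygenase 2, and the chemokine CXCL3 had average changes of -2.53 ± 0.51 and -1.15 ± 0.23 (SE), with CXCL3 under 2 CPM in all groups. PTGS2 was low in A375, where it went from 0.839 to 0.446 CPM with overlapping libraries (-0.91 on the log2 scale), against -3.69 in SKMel28. Of 28 interferon-stimulated genes, 6 rose, 4 fell and 8 were called in opposite ways (median -0.09). Without resistant A375 library 2, or sensitive A375 library 2 or 3, only 2 fell. IFIT3, an antiviral RNA-binding protein, rose from 19.4 ± 0.587 to 29.4 ± 0.795 CPM in A375 and 11.6 ± 1.30 to 15.5 ± 0.836 CPM in SKMel28, and PARP9 from 19 ± 1.13 to 25 ± 0.397 CPM in A375 and 51.3 ± 3.84 to 86.8 ± 1.12 CPM in SKMel28. IRF7, a transcription factor that drives interferon genes, fell from 4.27 ± 0.272 to 2.52 ± 0.503 CPM in A375 and 5.18 ± 0.688 to 2.39 ± 0.136 CPM in SKMel28, and IFI6 from 17.9 ± 0.789 to 10.1 ± 1.33 CPM in A375 and 69.4 ± 1.22 to 53.3 ± 0.461 CPM in SKMel28. All 6 rises lie on arms that were shifted in a line (10q, 3q and 1p), and without the genes of such arms 0 rose and 3 fell of 17.

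Genes of DNA replication and the G1-S step were shared falls more often than most groups, 10 of 32 with 1 rise and 9 opposite calls (median -0.12). In A375 2 were called higher and 21 lower, but in SKMel28 14 higher and 14 lower. The median change was -0.17 in A375 and -0.02 in SKMel28. CDK6, a kinase that starts the cycle, had 251, 250.5 and 258 CPM in sensitive and 173, 172 and 191 CPM in resistant A375, and 138, 128 and 130 CPM and 100.5, 93.3 and 91.8 CPM in SKMel28. Every resistant library was below every sensitive one, and the average was -0.49 ± 0.04 (SE, edgeR adjusted p = 8.09e-06). RRM2, a subunit of ribonucleotide reductase, fell by 0.34 and 0.26 on the log2 scale, MCM7, of the replicative helicase, by 0.19 and 0.31, and GINS1 by 0.70 and 0.23. Under DESeq2's size factors, and without resistant A375 library 2 or 3, the list held 2 rises and 8 falls. Mitotic genes gave 3 rises, 5 falls and 8 opposite calls of 30 (median -0.03). The mitotic counts were 1 and 2 of 16 without genes of shifted arms. CDC20, an activator of the anaphase-promoting complex, fell from 282 ± 4.43 to 177 ± 4.78 CPM in A375 and 213 ± 8.48 to 135 ± 2.30 CPM in SKMel28. MAD2L1, of the spindle checkpoint, fell by 0.31 and 0.33, TPX2 by 0.58 and 0.23, and KIF2C by 0.76 and 0.29 on the log2 scale.

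Known p53 targets were shared rises more often than all genes, 8 of 27 with 1 fall and 8 opposite calls (median 0.16). In A375 21 were called higher and 1 lower, but in SKMel28 9 higher and 13 lower. The median change was 0.43 in A375 and -0.004 in SKMel28. TP53INP1, a proapoptotic p53 target, rose from 3.59 ± 0.143 to 8.09 ± 0.481 CPM in A375 and 10.5 ± 0.453 to 20.5 ± 1.51 CPM in SKMel28. Beside FAS, the cyclin CCNG1 rose by 0.31 and 0.19, and ZMAT3, an RNA-binding p53 target, by 0.56 and 0.27. The cell cycle inhibitor CDKN1A, the classic target, was not among them. Resistant A375 held 365 ± 1.63 CPM against 180.1 ± 4.81 CPM in sensitive cells, a rise, and resistant SKMel28 21.8 ± 1.26 CPM against 27.2 ± 1.29 CPM, a fall. FAS, TP53INP1, CCNG1 and ZMAT3 lie on arms raised in SKMel28, and 4 rises and 0 falls of 17 were found without genes of shifted arms. The 1 fall was also lost (0) without any 1 of the A375 libraries other than sensitive library 2. The CDK inhibitor and senescence list held 4 rises, 3 falls and 7 opposite calls of 19 (median -0.19), or 2 and 4 without genes of shifted arms, with LMNA, lamin A, falling from 2086 ± 21.9 to 1665 ± 40 CPM in A375 and 947 ± 31.3 to 821 ± 37 CPM in SKMel28.

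Glycolysis and hypoxia genes had the highest share of shared falls among the lists, 11 of 30 with 3 rises and 5 opposite calls (median -0.30). GAPDH had 6881, 6862 and 6953 CPM in sensitive and 5712, 5618 and 5492 CPM in resistant A375, and 4968, 4978 and 5196 CPM and 4053, 4259 and 4393 CPM in SKMel28, separate in both lines. PFKFB3, which makes the activator of phosphofructokinase, fell from 58.8 ± 2.97 to 47.9 ± 0.424 CPM in A375 and 129 ± 2.96 to 99.7 ± 1.54 CPM in SKMel28. PFKFB4, its relative, fell by 0.88 and 3.24, and SLC16A3, the lactate exporter MCT4, by 0.67 and 2.08 on the log2 scale. NDRG1, a hypoxia-responsive gene, fell by 0.28 and 0.66. PFKP, the platelet-type phosphofructokinase, rose by 0.18 and 0.38. Under DESeq2's size factors 9 fell, without genes of shifted arms 6 of 21, and without resistant A375 library 1 7 of 30. The 3 rises went to 0 of 21 without genes of shifted arms and to 1 without sensitive A375 library 1.

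Mitochondrially encoded genes rose, 8 of 13 with 0 falls and 0 opposite calls (median 0.46). In A375 8 were called higher and 1 lower, and in SKMel28 11 higher and 1 lower. The median change was 0.16 in A375 and 0.60 in SKMel28. MT-CYB, of complex III, had 951, 855 and 843 CPM in sensitive and 1118, 1204 and 1173 CPM in resistant A375, and 2422, 2359 and 2537 CPM and 3644, 3571 and 3863 CPM in SKMel28. MT-CO2 and MT-CO1, of complex IV, and MT-ND4, of complex I, rose by average values of 0.47, 0.52 and 0.46. The share of mitochondrial reads given above rose with them, since it is the same reads, and whether RNA quality or cell handling moved it was not tested. Of 33 nuclear genes of oxidative phosphorylation, 6 rose, 2 fell and 11 were called in opposite ways (median -0.04). Without resistant A375 library 2 or 3 there were 7 rises and 1 fall, and without genes of shifted arms 4 and 0 of 22. UQCRFS1, UQCRB and UQCRC2, all of complex III, rose by average values of 0.38, 0.25 and 0.48, and SDHB, of complex II, fell by 0.29 on the log2 scale.

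Cytosolic ribosomal protein genes gave 0 rises, 7 falls and 3 opposite calls of 30 (median -0.21). RPL11 fell most, from 989 ± 28 to 664 ± 14 CPM in A375 and 1242 ± 16.7 to 808 ± 50.1 CPM in SKMel28, and lies on 1p. RPLP0, RPS2 and RPS7 fell by average values of 0.22, 0.25 and 0.15. These genes share reads with many processed pseudogenes, as do GAPDH and PRDX1, so their counts are uncertain. Without resistant A375 library 3, 4 of the 30 fell.

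Stress and storage genes moved both ways. Of 28 ATF4 and unfolded protein response genes, 2 rose, 5 fell and 13 were called in opposite ways (median -0.09). Of 17 left without genes of shifted arms, 2 rose and 2 fell. NUPR1, a stress-induced nuclear protein, rose from 3.19 ± 0.179 to 11.4 ± 1.23 CPM in A375 and 48.3 ± 1.52 to 95.1 ± 4.89 CPM in SKMel28. VLDLR, the very low density lipoprotein receptor, rose by 1.02 and 0.53, and the chaperone HSPA5 (BiP) fell by 0.30 and 0.17 on the log2 scale beside the fall of DDIT4. Of 30 NRF2 and glutathione genes, 5 rose, 4 fell and 12 were called in opposite ways (median 0.03), 3 rose and 4 fell without sensitive A375 library 1 or 2, and 2 rose and 1 fell of 17 without genes of shifted arms. NQO1, a quinone reductase under NRF2, fell from 339 ± 4.90 to 249 ± 3.02 CPM in A375 and 1373 ± 12.1 to 1068 ± 47.9 CPM in SKMel28, and the peroxiredoxin PRDX1 from 771 ± 4.91 to 528 ± 6.15 CPM in A375 and 311 ± 6.42 to 80.1 ± 2.23 CPM in SKMel28. GSTM3, a glutathione transferase of a family of near-identical genes and so of uncertain count, fell from 20.6 to 0.0696 CPM in A375, and SKMel28 went from 447 to 3 reads, a 162-fold ratio with a 95% exact interval of 55.2 to 791. GPX8, a peroxidase of the endoplasmic reticulum, rose by 0.40 and 0.82. Of 32 lysosome and autophagy genes, 5 rose, 4 fell and 12 were called in opposite ways (median -0.05). Beside the rise of CTSK, the protease gene CTSD fell by 0.44 and 0.27 and the membrane protein gene LAMP1 by 0.26 and 0.23 on the log2 scale.

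For contrast, some large changes ran in opposite directions. TMEM158, a RAS-induced membrane protein, went from 23.8 ± 4.23 to 266 ± 27.5 CPM in A375 and 78.5 ± 9.59 to 3.28 ± 0.451 CPM in SKMel28. STC1, stanniocalcin 1, a secreted inhibitor of the protease that frees IGFs, went from 11.6 ± 1.44 to 290.1 ± 4.53 CPM in A375 and 28.5 ± 2.81 to 3.79 ± 0.294 CPM in SKMel28. TFPI2, a protease inhibitor, went from 14.5 ± 0.210 to 130.1 ± 6.48 CPM in A375, and from 8645 reads to none in SKMel28, at least 3140-fold lower. These 3 rose in A375 and fell in SKMel28. SERPINF1, the antiangiogenic factor PEDF, went from 11.4 ± 0.516 to 0.280 ± 0.121 CPM in A375 and 0.907 ± 0.0312 to 87 ± 4.62 CPM in SKMel28. CDH19, a cadherin of the Schwann cell lineage, went from 15.4 ± 1.21 to 0.0392 ± 0.0176 CPM in A375 and 12.4 ± 0.965 to 81.9 ± 1.69 CPM in SKMel28, and OLFML2A, a secreted protein, from 25 ± 0.480 to 3.87 ± 0.471 CPM in A375 and 7.02 ± 1.06 to 60 ± 3.61 CPM in SKMel28. These fell in A375 and rose in SKMel28, and none of the 6 was called by the average.

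The chromosomal place of the shared falls was uneven. Over genes at 2 CPM or more, 4 of 41 chromosome arms had a median log2 fold change beyond 0.25 in A375, all downward, with -0.53 on 1p, -0.44 on 13q, -0.47 on 20p and -0.36 on 20q. In SKMel28 12 arms were beyond it, from -0.71 on Xp to 0.50 on 10p, and 0 arms were shifted in both lines. The 4 lowered A375 arms held high shares of shared falls, 29.6% of tested genes on 1p, 20.1% on 13q, 24.6% on 20p and 30.5% on 20q, against 9.66% of all genes. The highest share of shared rises on a shifted arm was 19.3%, on 5q, raised in SKMel28, and 18p, shifted in neither line, had 20.3%. The 16 shifted arms held 34.0% of tested genes, 34.4% of the shared rises and 46.9% of the shared falls. Of the 15 largest falls, NFATC2, EXTL1, TINAGL1 and HIVEP3 lie on lowered A375 arms, as does TMX4, and TNC lies on 9q and RCAN1 and S100B on 21q, arms lowered in SKMel28 (-0.37 and -0.36). FAM84B and CTHRC1 fell although on 8q, raised in SKMel28 (0.40). Of the 15 largest rises, VEPH1, PROS1 and MYLK lie on 3q, HAS2 on 8q, FAS on 10q and VCAN on 5q, all raised in SKMel28 (0.28, 0.40, 0.34 and 0.34). The remaining 6 falls, among them ITGB3, FXYD3, CEMIP and CSPG4, and the remaining 9 rises lie on arms shifted in neither line. Whether copy number moved with these arms was not tested. Fitted without the genes of shifted arms, 10227 genes gave 766 shared rises, 853 shared falls and 1867 genes with opposite calls.

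**Figure D5:**
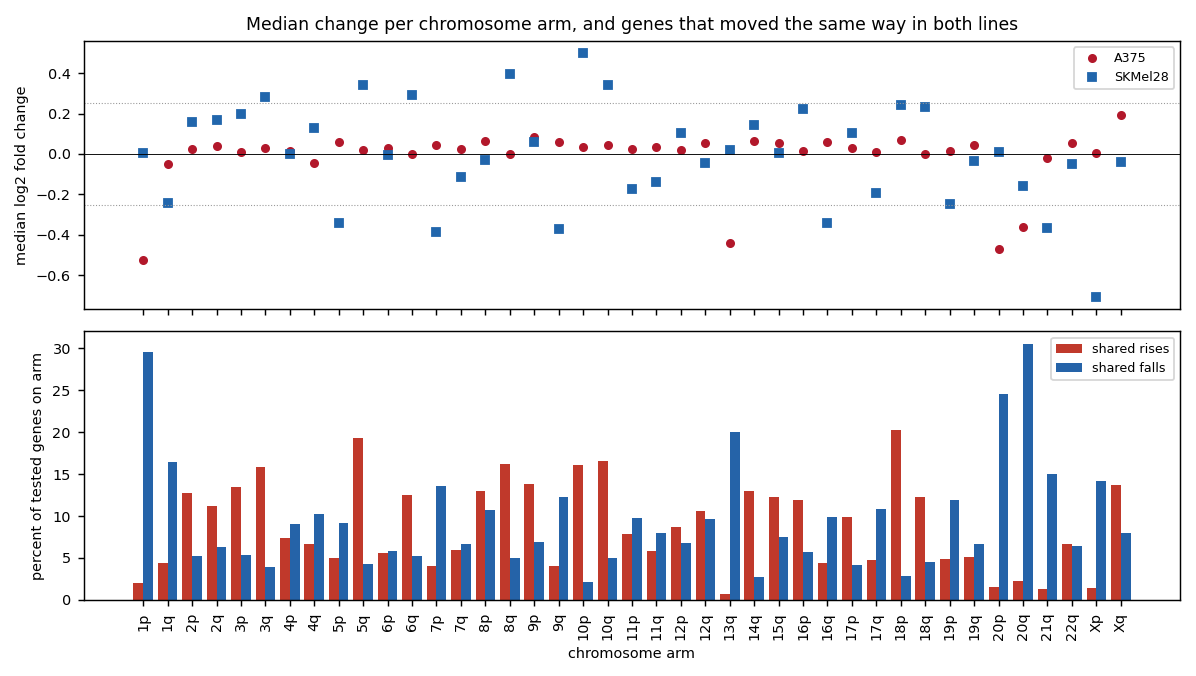
Upper panel: median log2 fold change of genes at 2 CPM or more on each of 41 chromosome arms, circles for A375 and squares for SKMel28, with dotted lines at 0.25 and -0.25. Lower panel: percent of tested genes on each arm that rose (red) or fell (blue) in both lines; the blue bars stand highest on 20q and 1p, at 30.5% and 29.6%.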

How the data were processed

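RNA was measured by poly(A) RNA-seq in 12 libraries, and the labels gave the groups. Each library has 1 file, in which the authors deposited unnormalized read counts by gene symbol. Per the submitters' processing notes, HISAT2, StringTie and GRCh38.p12 were used, while the deposited files' own naming points to STAR and to unstranded counting, so the aligner is not settled here, and overlapping or antisense genes cannot be told apart. Rows that name no gene (15.1% to 19.5% of all reads) were dropped, which left 26499 genes. No column of unmapped samples was found (0).

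Counts were tested with edgeR 4.0.16 (filterByExpr with a minimum count of 10, TMM, robust quasi-likelihood, Benjamini-Hochberg over 15506 genes) in R 4.3.3, with line and state as terms for the average. The changes within each line and their difference came from 4 group means. The scripts were tested on simulated data. DESeq2 1.42.0 and limma 3.58.1 were alternatives. CPM are TMM-scaled. Named genes were the 15 largest shared rises and falls (10 CPM or more in the higher group of each line, no overlap of libraries, ranked by the smaller change), a core set, up to 4 shared members per list by adjusted p, 3 opposite genes each way and the 5 least different. The members, the 40 lists (5 of them marker lists, 938 symbols in all) and the tests were chosen with earlier results of these data known, the 27 lists described in the report and other named genes after their values were seen. Positions are those of GENCODE 29, promoters those of RefSeq. Intervals and floors cover counting error only, since no molecular identifiers are named. Protein sequences were not used here, and some items are not reported here.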

Additional observations from a re-analysis of the deposited data

Results flagged for a closer look

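The change with resistance differed between the lines for 118 of the 165 genes named here, by edgeR's contrast of the lines' changes at an adjusted p below 0.05, beside 63.8% of all genes tested. Values below are the log2 fold change in A375 minus that in SKMel28, so that a positive value means a larger rise or smaller fall in A375. Groups of 3 libraries were not tested for outlying libraries.

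ERK target and feedback genes with changes of opposite sign differed by 2.56 for HMGA2, 2.41 for FOSL1, 1.90 for CCND1 and 1.60 for DUSP6. ERK target and feedback genes with changes of the same sign differed by 2.00 for ETV4, 1.90 for EGR3, 1.68 for DUSP4, 1.05 for SPRY1, 0.75 for SPRY4, 0.73 for EPHA2, -0.63 for EPHA4 and 0.47 for SPRY2. Smaller ERK target and feedback differences were -0.16 for ETV5. Core MAPK and RAS genes with changes of opposite sign differed by 0.78 for MAP2K1. Core MAPK and RAS genes with changes of the same sign differed by -0.66 for SOS1 and -0.51 for SHOC2. IGF, PI3K and receptor genes with changes of opposite sign differed by 2.41 for IRS1, -1.58 for IGF1R, 1.07 for EGFR and 0.47 for AXL. IGF, PI3K and receptor genes with changes of the same sign differed by 3.35 for NGFR, -1.86 for MET, -1.71 for DDR2, -0.98 for PROS1, -0.79 for PIK3CD, -0.53 for IRS2, 0.53 for PDGFC and 0.35 for IGFBP7. Smaller IGF, PI3K and receptor differences were -0.21 for IGFBP3. Pigment cell and neural crest genes with changes of opposite sign differed by -11.21 for CDH19 and -1.02 for MITF. Pigment cell and neural crest genes with changes of the same sign differed by -10.84 for SOX10, -5.42 for S100B, -2.32 for TYRP1, -0.21 for RAB27A, -0.20 for MLPH and 0.19 for L1CAM.

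Adhesion and matrix genes with changes of opposite sign differed by -11.89 for SERPINF1, 7.56 for STC1 and -5.79 for OLFML2A. Adhesion and matrix genes with changes of the same sign differed by 7.88 for TINAGL1, -4.32 for EXTL1, 2.67 for TNC, 1.93 for CTHRC1, 1.10 for HAS2, 0.73 for MIA, 0.44 for ITGA2 and 0.29 for CDH2. Smaller adhesion and matrix differences were -0.29 for CTSK, -0.22 for COL4A2, 0.17 for CSPG4 and 0.16 for TIMP2. Cytoskeleton and YAP genes with changes of the same sign differed by 7.42 for EPB41L3, -2.99 for TLN2, -1.73 for CYR61, -1.52 for MYLK, 1.51 for FHL1, -1.02 for ACTA2, -0.62 for ASAP1 and 0.42 for VCL. Smaller cytoskeleton and YAP differences were -0.18 for TPM4. WNT, NOTCH and TGF-beta genes with changes of the same sign differed by -1.65 for FST, 0.92 for LEF1, 0.59 for JAG1, 0.37 for NOTCH2, -0.36 for FZD6 and 0.32 for ID1. Immune and inflammatory genes with changes of the same sign differed by 2.78 for PTGS2, -2.13 for HLA-DRA, 1.61 for HLA-DPB1, 1.27 for CD274, -0.96 for CD68, -0.90 for CD74, -0.45 for IFI6 and -0.37 for PARP9. Smaller immune and inflammatory differences were 0.28 for B2M.

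Cell cycle, p53 and cell death genes with changes of opposite sign differed by 1.34 for CDKN1A. Cell cycle, p53 and cell death genes with changes of the same sign differed by -1.33 for FAS, -0.48 for GINS1, -0.48 for BMF, -0.47 for KIF2C, -0.35 for TPX2, 0.29 for ZMAT3, 0.12 for MCM7 and -0.12 for LMNA. Metabolic, mitochondrial and ribosomal genes with changes of the same sign differed by 2.36 for PFKFB4, 1.42 for SLC16A3, -1.24 for FADS2, -0.60 for UQCRC2, -0.56 for MT-CO1, -0.47 for MT-ND4, 0.38 for NDRG1 and -0.25 for SDHB. Smaller metabolic, mitochondrial and ribosomal differences were 0.24 for RPS2, -0.24 for MT-CO2, -0.20 for MT-CYB, -0.20 for PFKP, -0.19 for UQCRB and 0.18 for RPLP0. Stress response and transport genes with changes of the same sign differed by 2.19 for ABCG2, 1.41 for PRDX1, 0.86 for NUPR1, 0.49 for VLDLR, -0.42 for GPX8, -0.18 for CTSD and -0.13 for HSPA5. Other genes with changes of opposite sign differed by 8.06 for TMEM158. Other genes with changes of the same sign differed by 1.88 for FAM84B, 0.85 for EFR3B, -0.71 for VEPH1, -0.65 for NFATC2, -0.50 for TMTC2, 0.47 for HIVEP3, -0.35 for DHRS2 and -0.28 for RCAN1.

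For genes without reads in a group, the difference was computed with that group at a floor of 3 reads, and the line without reads changed at least as much as this implies: -2.52 for RXRG, 14.78 for TFPI2 and -0.28 for BMP7.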

How the results depend on the processing

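The average change was called for 2669 genes as higher and 2829 as lower. The replicate block (line by replicate number beside state) gave 1143 and 1267, and 2131 of the 2826 shared genes were called again. The numbers share only a name: the residual correlation of same-numbered libraries was -0.0024 to 0.0301 in A375 and 0.00767 to 0.0471 in SKMel28, and not every library correlated best with its own number. The block ended the average call of 17 of the 165 named genes (ABCG2, DDR2, DUSP4, EPB41L3, ETV4, ETV5, EXTL1, FADS2, FGF1, FST, HLA-DPB1, MET, NGFR, RPS7, S100B, SOS1 and TINAGL1). Fitted as 4 group means, where the difference between lines is outside the spread, the plain mean of the lines' changes gave 4531 and 5267. Without genes of shifted arms the counts were 1686 and 1721, with 766 shared rises, 853 shared falls and 1867 opposite calls, from fewer genes tested. Requiring at least 2-fold in each line left 108 rises and 241 falls. With 1 library left out, the average gave 2141 to 3001 higher and 2243 to 2856 lower genes, 1151 to 1467 shared rises, 1233 to 1492 shared falls and 2803 to 3095 opposite calls, and shared rises outnumbered shared falls without any 1 of the resistant A375 libraries (1411 and 1246, 1437 and 1235, 1467 and 1233). They did so too under DESeq2's size factors (1536 and 1339), DESeq2's Wald test (1532 and 1328) and no filter (1507 and 1302), so which direction holds more shared genes depends on these choices. No other setting tried moved a count over all genes by over 1.5 times, and none reversed a named gene. Without the block, limma voom and edgeR under other settings ended only the ETV5 call, beside that of DUSP4 given above. Fitted as 4 group means, the plain mean changes of CCND1, CDKN1A, FOSL1, HMGA2, IRS1, MAP2K1, MITF and SOX10 were called. DESeq2's Wald test called the averages of CCND1 and SOX10, and limma voom those of CCND1, CDKN1A and EGFR. Under the replicate block the lists whose shared counts moved by over 1.5 times held 2 rises and 1 fall of receptor tyrosine kinases, 2 and 6 of glycolysis, 0 and 3 of ribosomal proteins, 6 and 3 of the matrix list, 4 and 1 of nuclear oxidative phosphorylation, 1 and 1 of core MAPK, 1 and 2 of neural crest, 2 and 2 of TGF-beta, 3 and 4 of NRF2, 4 and 0 of YAP and TEAD, 6 and 0 of p53 and 4 and 0 of melanocyte genes. DESeq2's size factors left 1 fall of YAP and TEAD targets and 0 of p53 and melanocyte genes. Genes under about 1 CPM rest on few reads in these libraries.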

Other observations

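Further gene lists, not described above, are given by their counts, to be read against 8.56% rises, 9.66% falls and 20.1% opposite calls of all genes. Of 27 genes of the undifferentiated or invasive melanoma state, 4 rose, 3 fell and 10 were called in opposite ways (median average log2 fold change 0.08). Beside CYR61, TNC and CDH2, whose levels are given above, FST, an activin-binding protein, rose from 130 ± 1.76 to 165 ± 8.44 CPM in A375 and 2.12 ± 0.460 to 8.46 ± 0.652 CPM in SKMel28 (SD, n = 3). Of 25 immediate early and AP-1 genes, 1 rose, 2 fell and 15 were called in opposite ways (median -0.24). EGR3, an early response factor, fell from 5.35 ± 0.375 to 2.20 ± 0.311 CPM in A375 and 15.8 ± 1.25 to 1.75 ± 0.351 CPM in SKMel28. Of 26 genes of the BCL2 family and caspases, 2 rose, 0 fell and 10 were called in opposite ways (median -0.01). BMF, a proapoptotic BH3-only protein, rose from 2.40 ± 0.503 to 4.67 ± 0.335 CPM in A375 and 4.79 ± 0.552 to 12.8 ± 0.474 CPM in SKMel28.

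Lipid synthesis genes gave 3 rises, 3 falls and 12 opposite calls of 32 (median 0.14). FADS2, a fatty acid desaturase, rose from 42.6 ± 1.35 to 51.6 ± 2.49 CPM in A375 and 5.36 ± 0.749 to 15.3 ± 1.20 CPM in SKMel28. Heat shock and chaperone genes gave 2 rises, 5 falls and 7 opposite calls of 25 (median 0.08). HSPA1A, an inducible chaperone gene with a near-identical copy and so of uncertain count, fell by 0.20 and 0.29 on the log2 scale. The ferroptosis list held 1 rise, 1 fall and 12 opposite calls of 21 (median 0.08). The ABC drug transporter list held 1 rise, 1 fall and 6 opposite calls of 23 (median -0.04), where the fall of ABCG2 was from 8.38 to 5.39 CPM in A375 and 1.25 to 0.173 CPM in SKMel28 and ABCC1 rose by 0.16 and 0.22. Of 30 chromatin modifiers, 0 rose, 2 fell and 9 were called in opposite ways (median -0.06), by edgeR's quasi-likelihood test, with SUZ12, of Polycomb complex PRC2, falling by 0.23 and 0.25 on the log2 scale. Among marker genes, 1 of 12 for melanoma cells rose and 3 fell, 0 and 0 of 8 for fibroblasts, 1 and 1 of 4 for immune cells, 0 and 1 of 8 for endothelial cells and 1 and 2 of 7 for keratinocytes.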
